A study of Mus musculus with 2 samples.

Results

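The genes described here are 10 that lymphocytes use to kill other cells or to signal with interferon gamma. The secreted and surface ligands are Ifng (interferon gamma), Ccl5 (a chemokine that draws leukocytes) and Fasl (the ligand of the death receptor Fas). The granule genes are Gzma, Gzmb and Gzmk (granzymes, serine proteases), Prf1 (perforin, which forms pores in the target membrane) and Nkg7 (a membrane protein of cytotoxic granules). Tbx21 and Eomes encode T-box transcription factors of natural killer (NK) and T cells. They were chosen by name, with earlier results of these data known. All 10, of the 24785 genes listed over both libraries, were present in both tables.

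A cytotoxic lymphocyte stores granzymes and perforin in granules and releases them at the contact with its target, where perforin lets granzymes enter. Resting NK cells already hold granzyme and perforin transcripts, whereas most T cells make them only after activation. Interferon gamma acts on almost every cell type through the receptor pair Ifngr1 and Ifngr2, and in lung it is known as an activator of macrophages.

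Living CD45+ cells of C57BL/6N wild-type mice were profiled in 2 single-cell libraries on the BD Rhapsody whole transcriptome platform. The BLM library came from lungs 15 days after intratracheal bleomycin, a drug that injures the alveolar epithelium and is used to model pulmonary fibrosis. The naïve library came from age- and sex-matched adult mice with no treatment. Each library pooled equal cell numbers of 3 mice, the cells cannot be assigned to a mouse, and library, run and group cannot be told apart. With 1 library per group there was no test and no p-value: levels are UMIs (unique molecular identifiers) summed over the cells of a class and scaled to a total of 1000000 (CPM) with exact Poisson 95% intervals, shares of cells have exact Clopper-Pearson 95% intervals, and ratios have exact conditional 95% intervals. Where a count was 0, the share that 3 cells would make is given as a floor, which limits cells with a UMI and not cells that express the gene. These intervals and floors cover counting error only, and UMIs of the same cell are not independent.

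After filtering, 4390 BLM cells and 3807 naïve cells remained, with medians of 2380 and 2698 UMIs, and 22 barcode numbers occurred in both libraries. NK cells were the cluster with NK receptor genes (139 BLM and 260 naïve cells, 3.17% and 6.83% of the libraries). T cells were split by UMIs of lineage genes into CD8 cells (253 and 225), CD4 cells (152 and 122), gamma delta cells (50 and 46) and Foxp3-positive cells, the suppressive regulatory T cells (75 and 22). The other 269 and 258 T-like cells had UMIs of none or several of these genes. None of the 10 genes was used to cluster or to define a class, but Gzma, Prf1, Gzmb, Ccl5 and Nkg7 lead the NK cluster by fold, so their high level there is a description. All 7 NK markers were detected in the NK cells of both libraries at a summed 7123 and 7363 CPM, against 202 and 243 CPM in gamma delta cells and 59.8 CPM or less in the other T cell classes, where Ncr1 was at 0 in BLM CD8, BLM Foxp3-positive and all CD4 cells. Cd3e stood at 13.4 and 18.6 CPM in NK cells and at 568 CPM or more in each T cell class. The 6 T cell markers summed to 311 and 346 CPM in NK cells and to 3090 CPM or more in each T cell class. A UMI of any of these 6 was found in 56 of 139 BLM and 98 of 260 naïve NK cells. Trdc, the gene that defined gamma delta cells, stood at 144 and 105 CPM in NK cells.

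The start sites of 3 members are shown because their transcripts are described first and because a Runx site, the binding sequence of a factor family of cytotoxic lymphocytes, was found in the 2 granzyme genes that led the NK cluster. Each line gives the 250 bases before the RefSeq start site on the strand of the gene (build GRCm38.p6), with motif matches in capitals. RefSeq promoters were matched for 9 of the 10 members.
Ifng, chr10:118440796-118441045, plus strand: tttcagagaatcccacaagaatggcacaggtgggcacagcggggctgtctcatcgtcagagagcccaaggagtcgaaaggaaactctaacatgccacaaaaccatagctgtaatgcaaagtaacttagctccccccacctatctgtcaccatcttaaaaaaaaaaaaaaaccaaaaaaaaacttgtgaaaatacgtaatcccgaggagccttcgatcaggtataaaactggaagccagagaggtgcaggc
Gzma, chr13:113100982-113101231, minus strand: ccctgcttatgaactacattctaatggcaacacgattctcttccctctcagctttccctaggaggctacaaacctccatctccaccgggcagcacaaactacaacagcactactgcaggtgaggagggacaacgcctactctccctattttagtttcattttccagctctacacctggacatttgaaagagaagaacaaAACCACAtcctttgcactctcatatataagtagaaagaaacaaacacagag
Gzmb, chr14:56262335-56262584, minus strand: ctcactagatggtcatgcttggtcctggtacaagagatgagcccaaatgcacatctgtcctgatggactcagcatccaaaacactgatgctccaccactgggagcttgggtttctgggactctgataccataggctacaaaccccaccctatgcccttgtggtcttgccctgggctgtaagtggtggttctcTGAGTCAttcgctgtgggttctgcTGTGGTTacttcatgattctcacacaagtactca

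The Runx motif searched was AACCACA on either strand. It lay 51 to 45 bases before the start of Gzma and, on the opposite strand, 34 to 28 bases before the start of Gzmb, and 4.40% of 32851 RefSeq windows of this length hold it. Gzmb also held the AP-1 motif TGANTCA, 58 to 52 bases before its start, which 6.75% of all windows hold. The T-box motif AGGTGTGA (1.12% of windows) occurred in the window of Nkg7, and an NF-kB-like motif (1.21%) in that of Gzmk. No match to these motifs was found in the windows of Ifng, Prf1, Fasl, Tbx21 and Eomes. A match is a string of letters, and no binding was measured.

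In the GENCODE vM21 annotation of GRCm38, Ifng spans chr10:118441046-118445892 and Gzmb chr14:56258838-56262260. Gzma (chr13:113093825-113100981) and Gzmk (chr13:113171608-113225908) lie on the minus strand of the same chromosome, 70626 bases apart. Prf1 (chr10:61297833-61304680), Nkg7 (chr7:43437073-43438249), Ccl5 (chr11:83525778-83530518), Fasl (chr1:161780689-161788495), Tbx21 (chr11:97098071-97115331) and Eomes (chr9:118478212-118486132) are the others, all protein-coding. Gzmk overlaps Esm1 on the opposite strand, Eomes the antisense gene Gm33460, and Ifng the same-strand model Gm49751. Whether the counting used strand is not given in the sources used here, so reads of these 3 pairs may not be told apart.

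NK cells had the highest level of most of the 10 genes. In the BLM library all 10 had their highest level of the 5 classes in NK cells, and in the naïve library 9 of 10 did, Gzmk being the exception. Gzmk in NK and CD8 cells did not separate in either library. The log2 ratio was 0.90 (-1.87 to 3.47) for NK over CD8 cells in BLM and 2.88 (-0.02 to 8.35) for CD8 over NK cells in naïve. NK cells held 91.4% of the Gzma UMIs of the BLM library and 88.9% of those of the naïve library while making up 3.17% and 6.83% of cells. For Prf1 the NK share of UMIs was 84.8% and 89.2%, for Gzmb 76.7% and 76.0%, and for Eomes 70.7% and 81.0%. For Fasl it was 41.2% and 64.7%, and for Nkg7 53.9% and 73.1%. Gzmk differed, with 20% and 5% of its few UMIs in NK cells and 26.7% and 40% in CD8 cells. Over all cells of a library the log2 ratio of BLM over naïve was -1.38 for Gzma, -1.52 for Prf1 and -1.11 for Nkg7. Over all cells but NK cells it was -1.78 for Gzma, -1.06 for Prf1 and -0.37 for Nkg7. The 301 BLM and 806 naïve Gzma UMIs outside NK cells included 78 and 169 in alveolar macrophages. Another 33 and 166 lay in 5 and 6 cells of the cell-cycle cluster with 2 or more NK marker UMIs and no Cd3 UMI. In bulk over a library, fewer NK cells and less RNA per cell cannot be told apart. These levels are also scaled to all UMIs of a library. Interstitial or recruited macrophages held 5073526 of them in BLM and 783090 in naïve, and their part in the ratios was not tested.

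**Figure D1:**
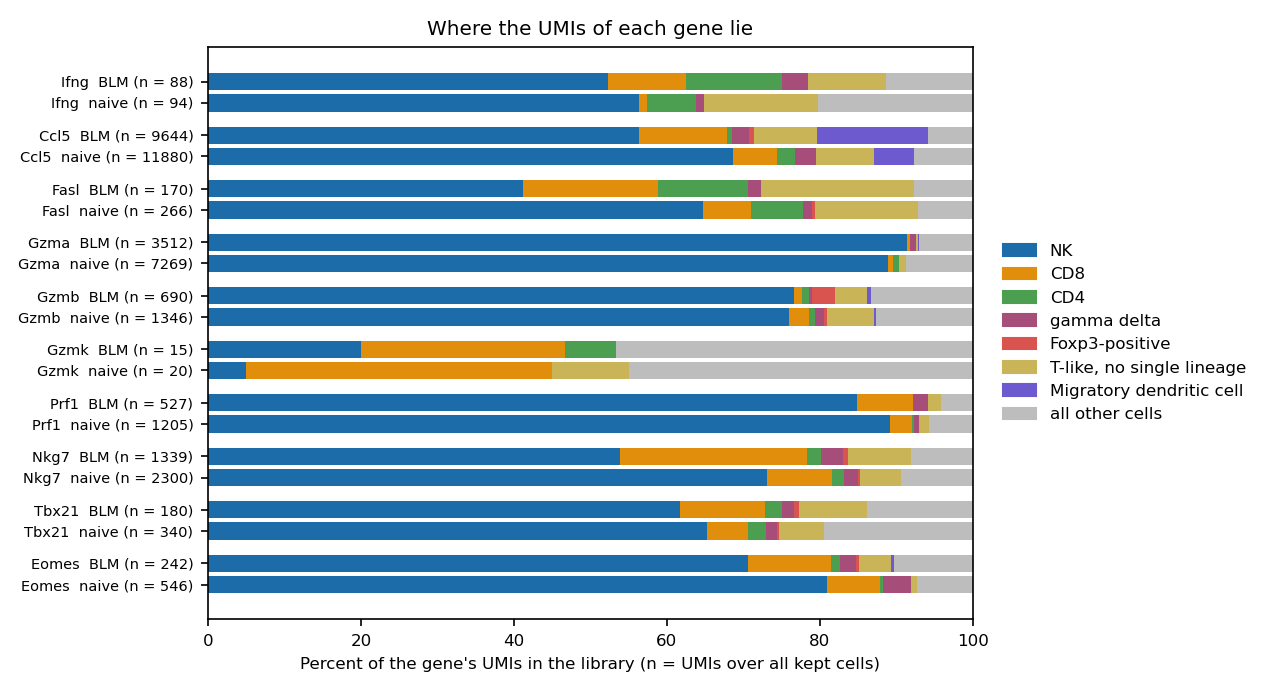
Percent of each gene's UMIs (horizontal axis) that lie in NK, CD8, CD4, gamma delta and Foxp3-positive cells, T cells of no single lineage, migratory dendritic cells and all other cells, for the BLM and the naïve library. NK cells hold most of the Gzma, Prf1, Gzmb and Eomes UMIs, and Gzmk is spread over 15 and 20 UMIs only.

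Ifng in NK cells stood at 154 CPM (113 to 205; 46 UMIs) in the BLM library and at 89.4 CPM (67.0 to 117; 53 UMIs) in the naïve library. The log2 ratio of BLM over naïve was 0.78 (0.18 to 1.38). The share of NK cells with an Ifng UMI was almost equal, 17.3% (11.4 to 24.6) against 16.9% (12.6 to 22.0), the median positive cell held 2 and 1 UMIs, and the intervals of the levels overlapped. After thinning every cell to 1000 UMIs the shares were 11.8% and 8.05%. NK cells with an Ifng UMI had a median of 1931 UMIs in the BLM library and 2340 in the naïve library, against 2089 and 2102 in those without.

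Ccl5 in NK cells reached 18184 CPM (17703 to 18674) in the BLM library and 13760.1 CPM (13463 to 14062) in the naïve library, a log2 ratio of 0.40 (0.35 to 0.45). It was found in 138 of 139 and 259 of 260 NK cells, with medians of 31 and 26 UMIs per positive cell. Fasl went the other way in value, 234 CPM (183 to 296) against 290.2 CPM (248 to 337), with an interval of the log2 ratio that held 0 (-0.73 to 0.10).

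Of the granule genes, the transcripts of Gzma and Gzmb in NK cells were close to equal in both libraries, and those of Prf1 and Nkg7 were lower in BLM. Granule protein was not measured. Gzma stood at 10749 CPM (10380 to 11127) and 10905 CPM (10641 to 11174), a log2 ratio of -0.02 (-0.08 to 0.04). Gzmb stood at 1771 CPM (1623 to 1928) and 1726 CPM (1622 to 1835), a log2 ratio of 0.04 (-0.12 to 0.19). These intervals hold no change larger than 0.19 on the log2 scale. Prf1 was lower in the BLM library, 1496 CPM (1361 to 1642) against 1814 CPM (1707 to 1926), with a log2 ratio of -0.28 (-0.44 to -0.12). The share of NK cells with a Prf1 UMI was 79.1% (71.4 to 85.6) against 90.0% (85.7 to 93.4). Nkg7 was likewise lower, 2417 CPM against 2836 CPM, with a log2 ratio of -0.23 (-0.36 to -0.10). Gzmk was near absent, with 3 UMIs in 139 BLM NK cells and 1 UMI in 260 naïve NK cells, a log2 ratio of 2.57 with a counting interval from -1.07 to 8.29.

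Of the transcription factors, Tbx21 was at 372 CPM (306 to 447) and 375 CPM (327 to 427) in NK cells, a log2 ratio of -0.01 (-0.35 to 0.32). Eomes was at 572 CPM (490 to 665) and 746 CPM (678 to 819), a log2 ratio of -0.38 (-0.64 to -0.12). Cells with both UMIs made up 63.8% of the Tbx21-positive BLM NK cells and 68.2% of the naïve ones. None of the 9 members with 20 or more UMIs in NK cells was 2-fold or more apart between the libraries. Over all 5672 genes with that many UMIs, 1.75% were 2-fold or more higher and 7.11% lower in BLM NK cells. The members' median log2 ratio was -0.02 and that of all genes -0.11. The intervals of 2 members lay above 0 (Ifng and Ccl5), of 3 below 0 (Prf1, Nkg7 and Eomes) and of 4 held it. The share of all genes with such intervals is not given, so this count is a description. Leaving out NK cells with a Cd3 UMI put Ifng past 2-fold, at 1.01.

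**Figure D2:**
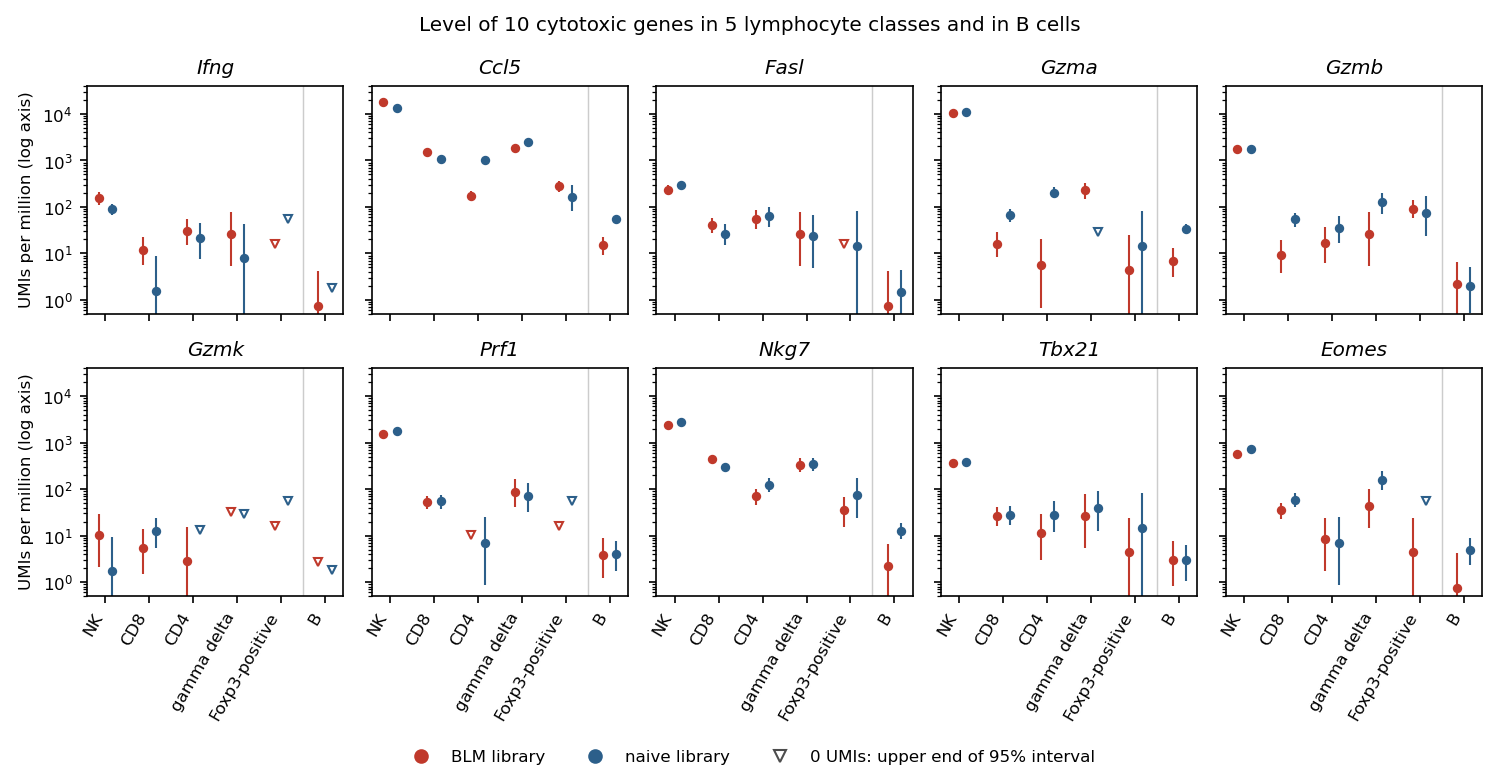
CPM (log axis) of each gene in NK, CD8, CD4, gamma delta and Foxp3-positive cells and in B cells as background, with exact Poisson 95% intervals. Red is the BLM library, blue the naïve library, and open triangles mark 0 UMIs at the upper end of the interval. Ccl5 in NK cells is at 18184 and 13760.1 CPM, and the B cell level of Gzma is 6.73 CPM in BLM and 33.3 CPM in naïve.

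B cells, which should lack most of these genes, gave the background level. Gzma was seen in 1.41% of 637 BLM B cells (median 1654 UMIs) and in 7.42% of 822 naïve B cells (median 1957 UMIs), at 6.73 CPM (3.08 to 12.8) and 33.3 CPM (25.8 to 42.2). Ccl5 was seen in 2.98% and 10.6% of B cells, at 15.0 CPM (9.14 to 23.1) and 53.8 CPM (44.2 to 64.8). The B cell levels of Gzma, Nkg7 and Ccl5 were thus lower in the BLM library, with log2 ratios of -2.30 (-3.49 to -1.30), -2.50 (-4.87 to -0.80) and -1.85 (-2.61 to -1.15). In neutrophils the ratios were -1.35 (-2.61 to -0.13), -1.48 (-3.75 to 0.59) and -0.54 (-1.34 to 0.27). The share of NK cells, the main holders of these transcripts, was also lower in BLM, and its part in this background was not tested. By the interval of the ratio to B cells, 10 members in BLM and 9 in naïve lay above this background in NK cells. In CD8 cells 8 and 9 did, and in CD4 cells 5 and 7. In gamma delta cells 9 and 7 did, and in Foxp3-positive cells 3 and 3. The share of all genes that pass this rule is not given, so these counts are descriptions. In BLM gamma delta cells Ifng, Gzmb, Fasl and Tbx21 passed on 3 UMIs each. In BLM CD4 cells 10 of the 11 Ifng UMIs came from 1 cell.

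In CD8 cells, the T cells that recognise MHC class I, Ccl5 was the most widely detected of the ligands and stood higher in the BLM library. Its level was 1494 CPM (1408 to 1585; 1112 UMIs) in BLM and 1055 CPM (977 to 1137; 681 UMIs) in naïve, a log2 ratio of 0.50 (0.36 to 0.64). A Ccl5 UMI was found in 49.4% (43.1 to 55.7) of BLM CD8 cells and 26.2% (20.6 to 32.5) of naïve ones, and after thinning in 37.5% and 16.6%. The median positive cell held 6 UMIs in BLM and 2 in naïve. In naïve CD8 cells 232 of the 681 UMIs came from 3 cells, against 132 of 1112 in BLM.

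Nkg7 was likewise higher in BLM CD8 cells, at 439 CPM (393 to 490) against 304 CPM (263 to 349) in naïve, a log2 ratio of 0.53 (0.27 to 0.80). It was seen in 58.9% of BLM and 47.6% of naïve CD8 cells, and after thinning in 30.8% and 23.6%. Ifng was seen in 7 of 253 BLM CD8 cells (9 UMIs, 12.1 CPM) and in 1 of 225 naïve cells (1 UMI, 1.55 CPM), a log2 ratio of 2.96 with a counting interval of 0.11 to 8.42. Of those 7 cells, 6 also held Ccl5 and 6 held Nkg7. Prf1 was alike in value, 52.4 CPM (37.3 to 71.7) against 54.2 CPM (37.8 to 75.4), with a log2 ratio of -0.05 (-0.75 to 0.65). Fasl stood at 40.3 and 26.3 CPM, Tbx21 at 26.9 and 27.9 CPM and Eomes at 34.9 and 58.9 CPM, and the intervals of all 3 ratios held 0.

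The granzymes of CD8 cells were low and stood lower in BLM. Gzma had 12 UMIs in BLM (16.1 CPM, 8 cells) and 43 in naïve (66.6 CPM, 22 cells), a log2 ratio of -2.05 (-3.11 to -1.10), beside ratios of -2.30 in B cells and -1.35 in neutrophils. In BLM its ratio to the B cell level had an interval that held 0 (-0.11 to 2.69), and in naïve the interval lay above 0 (0.42 to 1.57). Gzmb had 7 UMIs in 6 BLM cells and 35 UMIs in 9 naïve cells, a log2 ratio of -2.53 (-3.94 to -1.33). A single naïve cell held 22 of the 35, and without the top cell of each library the log2 ratio was -1.60 (-3.44 to -0.02). With T sub-clusters in place of lineage UMIs it turned to 1.11, on 10 and 4 UMIs. Gzmk had 4 UMIs in 3 BLM cells and 8 UMIs in 5 naïve cells. Of 8 members with 20 or more UMIs in CD8 cells, none was 2-fold or more higher in BLM and 2, Gzma and Gzmb, were lower. Both reached 20 UMIs through the naïve library alone, so this count is a description. Over 6695 genes, 2.36% were higher and 5.54% lower by this measure. The median log2 ratio was -0.05 for the members and -0.11 for all genes.

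CD8 cells fell mainly into a sub-cluster led by Cd8b1 and Ccr7, the lymph node homing receptor of resting T cells, and one led by Ly6c2, a surface protein. The Ccr7 sub-cluster held 46.6% (40.4 to 53.0) of BLM and 65.3% (58.7 to 71.5) of naïve CD8 cells, and the Ly6c2 sub-cluster 40.7% (34.6 to 47.0) and 24.0% (18.6 to 30.1). Nkg7 is among the leading genes of the Ly6c2 sub-cluster. Ccl5 stood higher in BLM within both of these. In the Ccr7 sub-cluster it was 374 CPM in BLM and 69.7 CPM in naïve, a log2 ratio of 2.42 (1.81 to 3.09), and the naïve level was close to the 53.8 CPM of naïve B cells. In the Ly6c2 sub-cluster it was 1755 and 787 CPM, a log2 ratio of 1.16 (0.89 to 1.43). Nkg7 differed in the Ly6c2 sub-cluster, 564 against 304 CPM (0.89, 0.46 to 1.34), and in the Ccr7 sub-cluster the interval held 0 (205 against 227 CPM, -0.15, -0.64 to 0.34). Taking the sub-clusters as the CD8 class raised the Ccl5 ratio to 2.01. In a smaller sub-cluster led by Cxcr3 the order was the opposite, with 6733 CPM in 14 BLM and 21924 CPM in 8 naïve CD8 cells. Those 8 cells held 413 of the 681 naïve UMIs and included the 3 with most Ccl5 (85, 78 and 69 UMIs).

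**Figure D3:**
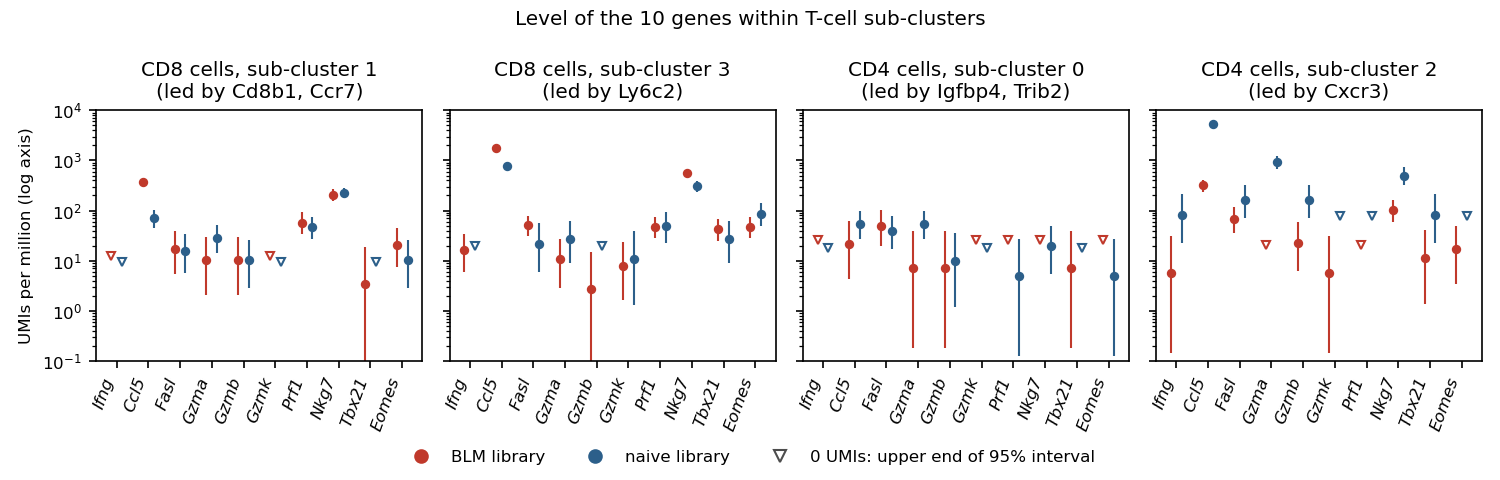
CPM (log axis) of the 10 genes in CD8 cells of sub-clusters 1 and 3 and in CD4 cells of sub-clusters 0 and 2, each named by leading genes, with exact Poisson 95% intervals. Red is BLM, blue naïve, and open triangles mark 0 UMIs at the upper end of the interval. Ccl5 is higher in BLM in both CD8 sub-clusters (374 against 69.7 CPM and 1755 against 787 CPM) and lower in BLM in CD4 sub-cluster 2 (317 against 5251 CPM).

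CD4 cells, the helper T cells, held few UMIs of these genes, and a handful of cells set the levels. Gzma had 2 UMIs in 2 of 152 BLM cells (5.56 CPM) and 58 UMIs in 16 of 122 naïve cells (204 CPM), a log2 ratio of -5.20 (-8.28 to -3.28). Of the 58 UMIs, 45 came from 3 cells, and the B cell level was 6.73 and 33.3 CPM. Ccl5 had 62 UMIs (172 CPM, 132 to 221) in BLM and 287 UMIs (1009 CPM, 896 to 1133) in naïve, a log2 ratio of -2.55 (-2.97 to -2.15). The same 3 naïve cells held 204 of the 287, each with 54 to 82 Ccl5 and 6 to 27 Gzma UMIs, and the share of cells with Ccl5 was 9.87% (5.63 to 15.7) against 17.2%. These 3 cells belonged to the Cxcr3 sub-cluster and carried 0, 2 and 0 UMIs of the 7 NK markers.

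That sub-cluster held 49.3% of BLM and 17.2% of naïve CD4 cells, 75 and 21 cells, and Ccl5 within it was 317 CPM in BLM and 5251 CPM in naïve. In the sub-cluster led by Igfbp4 and Trib2, with 64 and 90 cells, Ccl5 was 21.2 and 53.8 CPM, and both libraries' values were near those of their B cells. Nkg7 in CD4 cells was 69.5 CPM (45.0 to 103) in BLM and 123 CPM (85.7 to 171) in naïve, a log2 ratio of -0.82 (-1.63 to -0.04) that turned to 0.41 when 2 or more lineage UMIs were required (19 and 11 UMIs). Fasl in CD4 cells was at 55.6 CPM (20 UMIs) and 63.3 CPM (18 UMIs), a log2 ratio of -0.19 (-1.18 to 0.82). Ifng had 11 UMIs in 2 BLM cells, 10 of them in 1 cell, and 6 UMIs in 4 naïve cells. That BLM cell lay in a sub-cluster led by Il1rl1, Klrg1 and Foxp3, with 6 Nkg7 UMIs and none of Ccl5. Prf1 was found in 0 of 152 BLM cells (floor 1.97%) and in 2 naïve cells. Gzmb had 6 and 10 UMIs, Tbx21 4 and 8, Eomes 3 and 2, and Gzmk 1 and 0. Of 4 members with 20 or more UMIs, none was 2-fold or more higher and 2, Gzma and Ccl5, were lower. Gzma reached 20 UMIs through the naïve library alone, so this count is a description. Over 4692 genes, 5.39% were higher and 6.67% lower, and the median log2 ratio was -1.69 for the members and -0.03 for all genes. The members' median is a description too. It rests on 4 genes, and the same 3 naïve cells held 45 of 58 Gzma and 204 of 287 Ccl5 UMIs.

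Gamma delta cells are T cells with the other type of antigen receptor. Taken as a whole class, their Nkg7 level did not separate from that of CD8 cells, and they carried Ccl5 at a higher level. Neither held for the sub-cluster with gamma delta markers, whose levels are given below. Ccl5 was 1846 CPM (1605 to 2113; 21 of 50 cells) in BLM and 2488 CPM (2222 to 2777; 17 of 46 cells) in naïve, a log2 ratio of -0.43 (-0.69 to -0.17). A sub-cluster with markers of innate-like killer T cells was led by Xcl1, Klrb1c and Klrc1, with Ccl5 among its leading genes. It held 5 BLM and 11 naïve gamma delta cells, with 86 and 288 of the Ccl5 UMIs. Without it the Ccl5 UMIs were 124 and 30 and the log2 ratio turned to 2.06. The order against CD8 cells was not computed without it. The sub-cluster with gamma delta markers, led by Pxdc1 and Cd163l1, held 28 BLM and 22 naïve gamma delta cells. There Ccl5 was at 78.4 CPM (5 UMIs) and 105 CPM (6 UMIs). Nkg7 was there at 78.4 CPM (5 UMIs) and 140 CPM (8 UMIs). Over the whole class Nkg7 was 334 CPM (38 UMIs) and 344 CPM (44 UMIs), a log2 ratio of -0.04 (-0.71 to 0.62). Prf1 was 87.9 CPM (10 UMIs) and 70.4 CPM (9 UMIs), and 6 of the 10 BLM UMIs came from 1 cell.

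Gzma had 26 UMIs in 5 BLM gamma delta cells and 0 UMIs in 46 naïve cells (floor 6.52%). Against a floor of 3 UMIs over the naïve group the log2 ratio was 3.28, and the lower end of the exact interval against 0 UMIs was 2.88. Of the 26 UMIs, 22 came from 1 cell with 9 NK marker UMIs and 6 Prf1 UMIs, and without that cell 4 UMIs were left and the lower end was -0.56. Eomes had 5 UMIs in BLM and 20 in naïve, a log2 ratio of -1.83 (-3.60 to -0.37). Of the 20, 17 came from 1 cell with 14249 UMIs, and without the top cells the counts were 2 and 3. Gzmb had 3 and 16 UMIs, Ifng 3 and 1, Fasl 3 and 3, Tbx21 3 and 5, and Gzmk none. Of 4 members with 20 or more UMIs, 1 was 2-fold or more higher (Gzma) and 1 lower (Eomes). Each reached 20 UMIs through the library where it was high, mostly in 1 cell, so this count is a description. Over 2208 genes, 5.39% were higher and 5.62% lower, and the median log2 ratio was -0.24 for the members and 0.02 for all genes.

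Foxp3-positive cells held few of these transcripts. Ifng, Prf1 and Gzmk were at 0 in both libraries, with floors of 4% of 75 BLM cells and 13.6% of 22 naïve cells. Gzmb was the granzyme seen in them, with 21 UMIs in 8 BLM cells (92.0 CPM, 57.0 to 141) and 5 UMIs in 1 naïve cell (73.5 CPM, 23.9 to 172), a log2 ratio of 0.32 (-1.12 to 2.09). In the BLM library they came after NK cells in Gzmb, above gamma delta cells with an interval of the log2 ratio from 0.06 to 4.19, and the top cell of the 8 held 9 UMIs. The Gzmb level of B cells was 2.24 and 1.96 CPM. Ccl5 was 276 CPM (212 to 353) and 162 CPM (80.7 to 289), a log2 ratio of 0.77 (-0.16 to 1.85), seen in 22.7% and 31.8% of cells. Nkg7 had 8 and 5 UMIs, Gzma 1 and 1, Tbx21 1 and 1, Eomes 1 and 0 and Fasl 0 and 1. Neither of the 2 members with 20 or more UMIs was 2-fold apart, where over 2703 genes 12.1% were higher and 8.73% lower in BLM, and the median log2 ratio was 0.55 for these 2 and 0.03 for all genes.

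**Figure D4:**
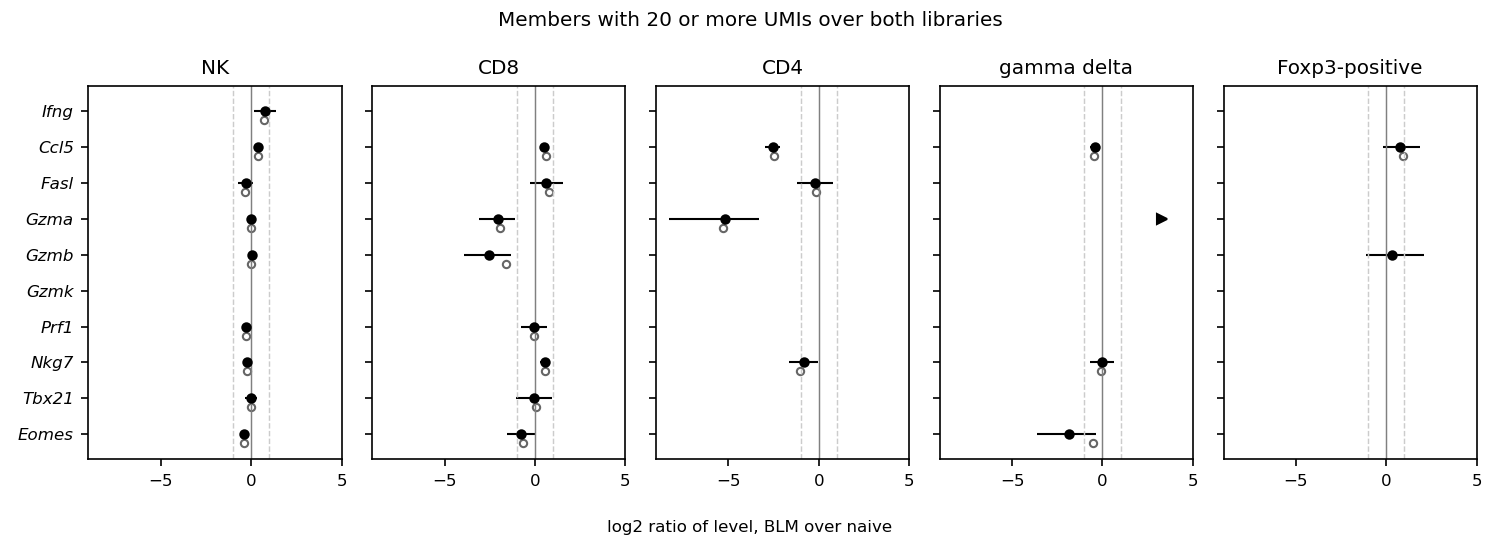
Log2 ratio of the level, BLM over naïve (horizontal axis), for members with 20 or more UMIs over both libraries in each class. Filled points carry exact conditional 95% intervals, open points leave out the cell with most UMIs of the gene in each library, the arrowhead marks a value set against a floor of 3 UMIs, and dashed lines mark 2-fold. NK ratios lie between -0.38 and 0.78, and Gzma in CD4 cells is at -5.20.

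Within each library the order of the classes could be read only in part. For Gzma, Gzmb, Prf1, Nkg7, Ccl5, Fasl, Tbx21, Eomes and Ifng, NK cells stood above the next class with an interval of the log2 ratio above 0 in both libraries. The smallest of these gaps were in Ifng over CD4 cells, 2.33 (1.36 to 3.43) in BLM and 2.08 (0.87 to 3.59) in naïve, in Fasl over CD4 cells, 2.08 (1.34 to 2.87) in BLM and 2.20 (1.49 to 2.99) in naïve, and in Eomes over gamma delta cells, 2.25 (1.61 to 2.98) in naïve. The order of Ccl5 below NK cells was gamma delta, CD8, Foxp3-positive cells and CD4 in BLM, with every neighbour's interval above 0, and gamma delta, CD8, CD4 and Foxp3-positive cells in naïve, where CD8 and CD4 cells did not separate (0.06, -0.14 to 0.27). The place of gamma delta cells includes the killer T sub-cluster, which held 86 of their 210 BLM and 288 of their 318 naïve Ccl5 UMIs. The sub-cluster with gamma delta markers held 5 and 6 of them. For Nkg7, CD8 and gamma delta cells as whole classes did not separate in either library. For Tbx21, no neighbours below NK cells separated. For Gzmk, no neighbours separated.

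NK cells held several of the 10 genes at once and T cells seldom did. The median NK cell had UMIs of 6 genes in BLM and 7 in naïve, and 84.9% and 90.4% of NK cells had 5 or more. After thinning to 1000 UMIs both medians were 5, and 67.9% of 137 BLM and 74.5% of 259 naïve NK cells had 5 or more. No NK cell was without any of the genes. In CD8 cells 7 BLM and 7 naïve cells had 5 or more, and 24.5% and 32.0% had none. None of the genes was found in 70.4% of BLM and 54.9% of naïve CD4 cells, in 66.7% and 59.1% of Foxp3-positive cells, and in 93.6% and 79.4% of B cells. Among BLM NK cells with Gzma, 84.4% also had Prf1 and 83.6% Gzmb, and among naïve ones 93.8% and 81.5%.

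**Figure D5:**
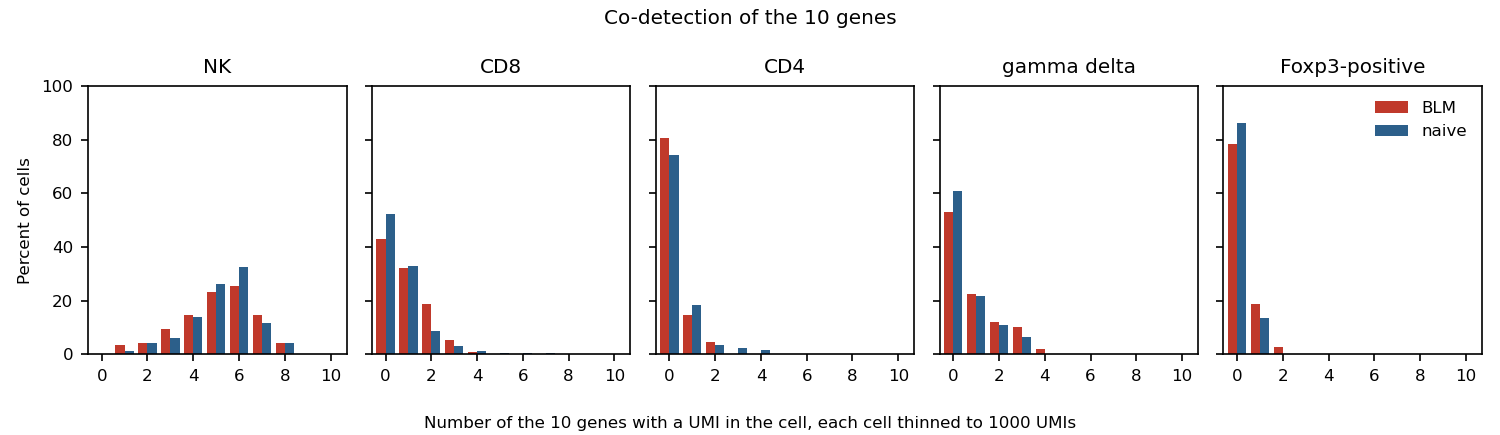
Percent of cells (vertical axis) with a given number of the 10 genes detected (horizontal axis) after thinning each cell to 1000 UMIs, by class. Red is BLM and blue naïve. NK cells centre on 5 genes in both libraries, and 42.9% of BLM and 52.4% of naïve CD8 cells have none.

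The genes most like each member were read from Pearson correlations of log2(CPM + 10) over 35 profiles of classes and clusters, among 10900 genes. The profiles share 2 libraries and overlap in cells, so these are descriptions. Prf1 was closest to Klrc2 (r = 0.96), Eomes (0.96) and Samd3 (0.95). Gzma was closest to Klra8, Klra9 and Klra4 (0.92, 0.92 and 0.91), receptors of NK cells. Ifng was closest to Fasl (0.92), Tbx21 (0.90) and Klre1 (0.89). Gzmb was closest to Itga2 (0.92), Kcnj8 (0.85) and Abcb1a (0.83), and Ccl5 to Serpinb6b (0.89), a protease inhibitor, Nkg7 (0.89) and Samd3 (0.86). Nkg7 was closest to Klrc1 (0.93), Tbx21 (0.92) and Txk (0.92). Fasl was closest to Ifng (0.92), Nkg7 (0.91) and Txk (0.91). Tbx21 was closest to Klre1 (0.94), Nkg7 (0.92) and Prf1 (0.92). Eomes was closest to Prf1 (0.96), Samd3 (0.94) and Klrc2 (0.94). Gzmk had weaker likenesses, to Bend4 (0.68), Racgap1 (0.65) and Mtbp (0.64).

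Another 5 lists were of granule and granzyme genes, killing by ligand, interferon gamma induction and response, transcription factors, and chemokines and receptors. Their 62 genes were read in the same way and were chosen with earlier results of these data known, so their counts are descriptions. In NK cells 42 of them had 20 or more UMIs, and 2 were 2-fold or more higher and 0 lower in BLM, where 1.75% and 7.11% of all genes were. These were Cxcl10, a chemokine induced by interferon gamma (31 and 15 UMIs, log2 ratio 2.04, 1.10 to 3.03), and Lef1, a transcription factor of immature and resting lymphocytes (34 and 24 UMIs, 1.49, 0.69 to 2.31). In CD8 cells 7 of 38 were higher and 0 lower, beside 2.36% and 5.54% of all genes. Among them were Serpinb9, an inhibitor of granzyme B (167 and 63.5 CPM, log2 ratio 1.39, 0.87 to 1.94), and Hopx (202 and 83.7 CPM, 1.27, 0.81 to 1.75).

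In CD4 cells 4 of 33 listed genes were higher and 0 lower, beside 5.39% and 6.67% of all genes. Among them were Stx11, a granule release gene (28 and 5 UMIs, log2 ratio 2.15, 0.75 to 3.88), Hopx (1.78, 1.16 to 2.44) and Bhlhe40 (1.49, 0.90 to 2.13). In gamma delta cells 4 of 23 were higher and 2 lower (all genes 5.39% and 5.62%), with Ctsc, the protease that activates granzymes, at 20 and 7 UMIs (1.68, 0.38 to 3.17) and Serpinb6b at 25 and 68 UMIs (log2 ratio -1.27). In Foxp3-positive cells 6 of 21 were higher and 4 lower (all genes 12.1% and 8.73%), with Hopx at 678 and 53 UMIs (log2 ratio 1.93, 1.53 to 2.36) and Gbp2, an interferon-induced GTPase, at 22 and 21 UMIs (-1.68, -2.61 to -0.74). Cxcl10 in NK, Stx11 in CD4 and Ctsc in gamma delta cells reached 20 UMIs through the BLM library alone. The granule list had a median log2 ratio of 0.08 in NK cells and 0.02 in CD8 cells. For the interferon gamma list it was -0.02 and 0.10, beside -0.11 for all genes in both classes.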

How the data were processed

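The deposited files held UMI counts per cell and gene, corrected for sequencing errors; per the file headers the authors made them with the BD Rhapsody WTA pipeline (version 1.8), GRCm38 and GENCODE vM19. A cell was kept if it had at least 200 genes and no more than 15% of its UMIs from mitochondrial genes (4526 BLM and 3925 naïve of 4714 and 4062 barcodes). The automatic Scrublet threshold (scanpy 1.11.5) marked 9 and 54 cells, so the highest 3% of scores of each library were left out instead (136 and 118 cells). Seurat 5.3.0 integrated and clustered the libraries (2000 variable genes without the 10 members and Tff1, 30 dimensions, resolution 0.5, 17 clusters), and T-like cells, in clusters where 50% or more of cells had a Cd3e UMI, gave 8 sub-clusters. Foxp3-positive cells had a Foxp3 UMI; CD8, CD4 and gamma delta cells had UMIs of Cd8a or Cd8b1, of Cd4 or of Trdc alone. T-like cells with none or several of these formed no class. Levels were sums of UMIs over cells. Genes with 20 or more UMIs over both libraries were compared, and a side at 0 was set to 3 UMIs. Intervals came from scipy 1.17.1. The ratio and its interval were tested on simulated data. The total kept was 21179781 BLM and 16839149 naïve UMIs. The members and lists were chosen with earlier results of these data known. All 10 members are named, with the 3 genes most like each and up to 3 list genes per direction with intervals farthest from 0; some of these list genes are not reported here.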

Additional observations from a re-analysis of the deposited data

Results flagged for a closer look

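For 3 genes the classes differed in direction between BLM and naïve, with intervals on opposite sides of 0 (counting error only). The difference between classes was not tested. In B cells, the background, the log2 ratios were -2.30 for Gzma, -2.50 for Nkg7 and -1.85 for Ccl5. In neutrophils they were -1.35, -1.48 and -0.54. Gzma in BLM CD8 cells did not separate from B cells (-0.11 to 2.69). In CD4 cells 3 naïve cells held 45 of the 58 naïve Gzma UMIs and 204 of the 287 naïve Ccl5 UMIs. Gzma had a log2 ratio of BLM over naïve of 3.28 in gamma delta cells against a floor of 3 UMIs, where 1 cell held 22 of 26 UMIs and the lower end of the interval was 2.88 with it and -0.56 without it, and of -2.05 in CD8 cells and -5.20 in CD4 cells. Nkg7 had a log2 ratio of 0.53 in CD8 cells, -0.23 in NK cells and -0.82 in CD4 cells, where it turned to 0.41 with 2 or more lineage UMIs. Ccl5 had a log2 ratio of 0.40 in NK cells and 0.50 in CD8 cells, and of -2.55 in CD4 cells and -0.43 in gamma delta cells, where it turned to 2.06 without the sub-cluster with killer T markers.

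A signal of 2 members also appeared outside the lymphocyte classes. Migratory dendritic cells held Ccl5 at 3114 CPM in BLM (1403 UMIs, 70 cells) and 5915 CPM in naïve (622 UMIs, 16 cells), against 15.0 and 53.8 CPM in B cells. Cells with 2 or more of 5 basophil or mast cell markers held Gzmb at 2400.2 CPM in BLM (32 UMIs, 24 of them in 1 of 5 cells) and 1998 CPM in naïve (71 UMIs, 38 of them in 1 of 10 cells), against 3.35 and 7.07 CPM in the other cells outside NK and T-like clusters.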

How the results depend on the processing

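No paired analysis was possible because each group is 1 library. The alternatives changed the cell filters, doublets, integration, resolution, clustering genes, class definitions, denominator, scaling, UMI minimum and thinning depth; leaving out the killer T sub-cluster or the cell with most UMIs was added after seeing the data. The number of members 2-fold or more apart was 0 in NK cells and 1 when cells with a Cd3 UMI were left out. It was 2 in CD8 and 2 in gamma delta cells and 1 and 0 at a minimum of 50 UMIs, and 2 in CD4 cells and 6 with sub-clusters as classes. For these counts, the number of members highest in NK cells and the thinned counts, 75 other values stayed within 1.5 times. The log2 ratio of Gzmb in CD8 cells reversed to 1.11 with sub-clusters as classes, that of Nkg7 in CD4 cells to 0.41 with 2 or more lineage UMIs, and that of Ccl5 in gamma delta cells to 2.06 without the killer T sub-cluster; the causes were not tested. Of the other ratios, 12 moved beyond the interval of the main value and 360 did not. Depth limits the T cell classes. Members with under 20 UMIs over both libraries were left out of the 2-fold counts. Ratios printed on so few UMIs, such as those of Ifng in CD8 cells and Gzmk in NK cells, are more than the counts can bear as results.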

Other observations

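Receptors of the ligands were read in all named classes. Ifngr1 was at 1764 CPM in BLM and 1789 CPM in naïve NK cells, while Ifngr2, the other chain of the interferon gamma receptor, was at 6.69 and 6.75 CPM there, 2 and 4 UMIs. In CD8 cells Ifngr1 was at 996 and 962 CPM and Ifngr2 at 128 and 195 CPM. Fas was highest in neutrophils, 198 CPM in BLM and 129 CPM in naïve. Ccr1, which binds Ccl5, was at 1436 and 1104 CPM in neutrophils and at 769 and 131 CPM in classical monocytes.

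Gzmk, the scarcest member, had 7 of its 15 BLM UMIs and 9 of its 20 naïve UMIs in the cluster led by cell-cycle genes. The cells of that cluster with a Cd3 UMI numbered 50 in BLM and 30 in naïve, and Gzmk was found in 2 and 3 of them.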
